A study of Mus musculus with 11 samples.

Results

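Purkinje cells of the cerebellum fall into parasagittal stripes that express the zebrin II antigen, the glycolytic enzyme aldolase C, or lack it, and 9 genes that mark these stripes were followed here in ribosome-bound RNA. The 4 zebrin-positive genes were Aldoc, Slc1a6, Plcb3 and Tshz1. The 5 zebrin-negative genes were Plcb4, Ebf2 and the neurofilament genes Nefl, Nefm and Nefh. They were chosen by gene symbol from the 55421 genes listed in each count file. All 9 were found once and all 9 passed the filter on low counts, which left 13375 genes. RNA was pulled down with HA-tagged Rpl22 ribosomes from whole cerebellum at postnatal day 56. The 4 knockout libraries came from Pcp2Cre;Tie2flox/flox;Rpl22HA/HA mice and the 7 control libraries from Pcp2Cre;Rpl22HA/HA mice. Both groups therefore carry the Pcp2Cre driver and 2 tagged Rpl22 alleles, and only the knockouts carry floxed Tie2. The Pcp2 promoter drives Cre in Purkinje cells, so the tag marks these cells, while RNA from other cells can be carried along in the pull-down. Batch 1 held 2 knockouts and 1 control, batch 2 held 1 of each, and batch 3 held 1 knockout and 5 controls. Each library has its own animal tag, by which it is named here.

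Zebrin stripes differ in their glutamate handling and in the signalling that follows metabotropic glutamate receptors. Zebrin-positive cells hold more of the glutamate transporter EAAT4 (Slc1a6) and phospholipase C beta 3 (Plcb3), and zebrin-negative cells use phospholipase C beta 4 (Plcb4). The stripes are laid down in development, when the transcription factor Ebf2 is needed for the zebrin-negative fate. Neurofilament light, medium and heavy chains (Nefl, Nefm, Nefh) form the intermediate filaments that set axon calibre, and the heavy chain in particular is known from zebrin-negative stripes.

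Reads in genes numbered 4087197 to 5142671 in the controls and 2583227 to 4199299 in the knockouts. Tek, which encodes Tie2, had 21 reads over the 4 knockouts and 93 over the 7 controls, ranging from 0 to 14 per knockout and from 0 to 40 per control, so it could not check the genotype labels. The Purkinje cell list of 15 markers was present in every library, at a summed 5456 to 6071 CPM (reads scaled to library size) in controls and 5343 to 6903 CPM in knockouts. Of these 15 markers 3 rose in the knockouts (Calb1, Car8 and Foxp2) and 3 fell (Dner, Homer3 and Lhx1). Markers of other cells were higher in the knockouts: 7 of 12 granule cell genes, 8 of 12 astrocyte and Bergmann glia genes and 3 of 11 oligodendrocyte genes rose and 0 fell. Over all tested genes 10.9% rose and 13.4% fell. A purity score (mean log2 CPM of the Purkinje list minus that of these 3 other lists) was 3.11 and 2.27 in the batch 1 knockouts, where the control had 3.91. The batch 2 knockout had 3.68 and its control 3.92, and the batch 3 knockout had 2.01, below its controls at 2.68 to 3.23. In such bulk samples fewer cells of a type and less RNA per cell cannot be told apart.

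Of the 9 genes, 4 rose in the knockouts (Tshz1, Nefl, Nefm and Nefh), 0 fell, and 5 did not pass the test. The test was the edgeR quasi-likelihood test with batch and genotype in the model, and a call means a Benjamini-Hochberg adjusted p under 0.05 over all 13375 genes. Over all tested genes 24.4% were called, 10.9% as higher and 13.4% as lower. By class, 1 of the 4 zebrin-positive and 3 of the 5 zebrin-negative genes rose. Most of the 9 moved little. In 7 of them the fitted log2 fold change was smaller in size than 0.404, the median size over all tested genes. The standard errors of the 9 fold changes ran from 0.08 to 0.20, beside a median of 0.228 over all genes. The knockout and control values did not overlap in Tshz1 and Nefl, both higher, and in Plcb3, lower. Among all genes 6.2% did not overlap in the higher and 6.74% in the lower direction. The log2 ratio had the same sign in all 3 batches in 6 of the 9 genes, against 48.5% of all genes. CPM values are not divided by transcript length, so levels are compared between libraries and not between genes.

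**Figure D1:**
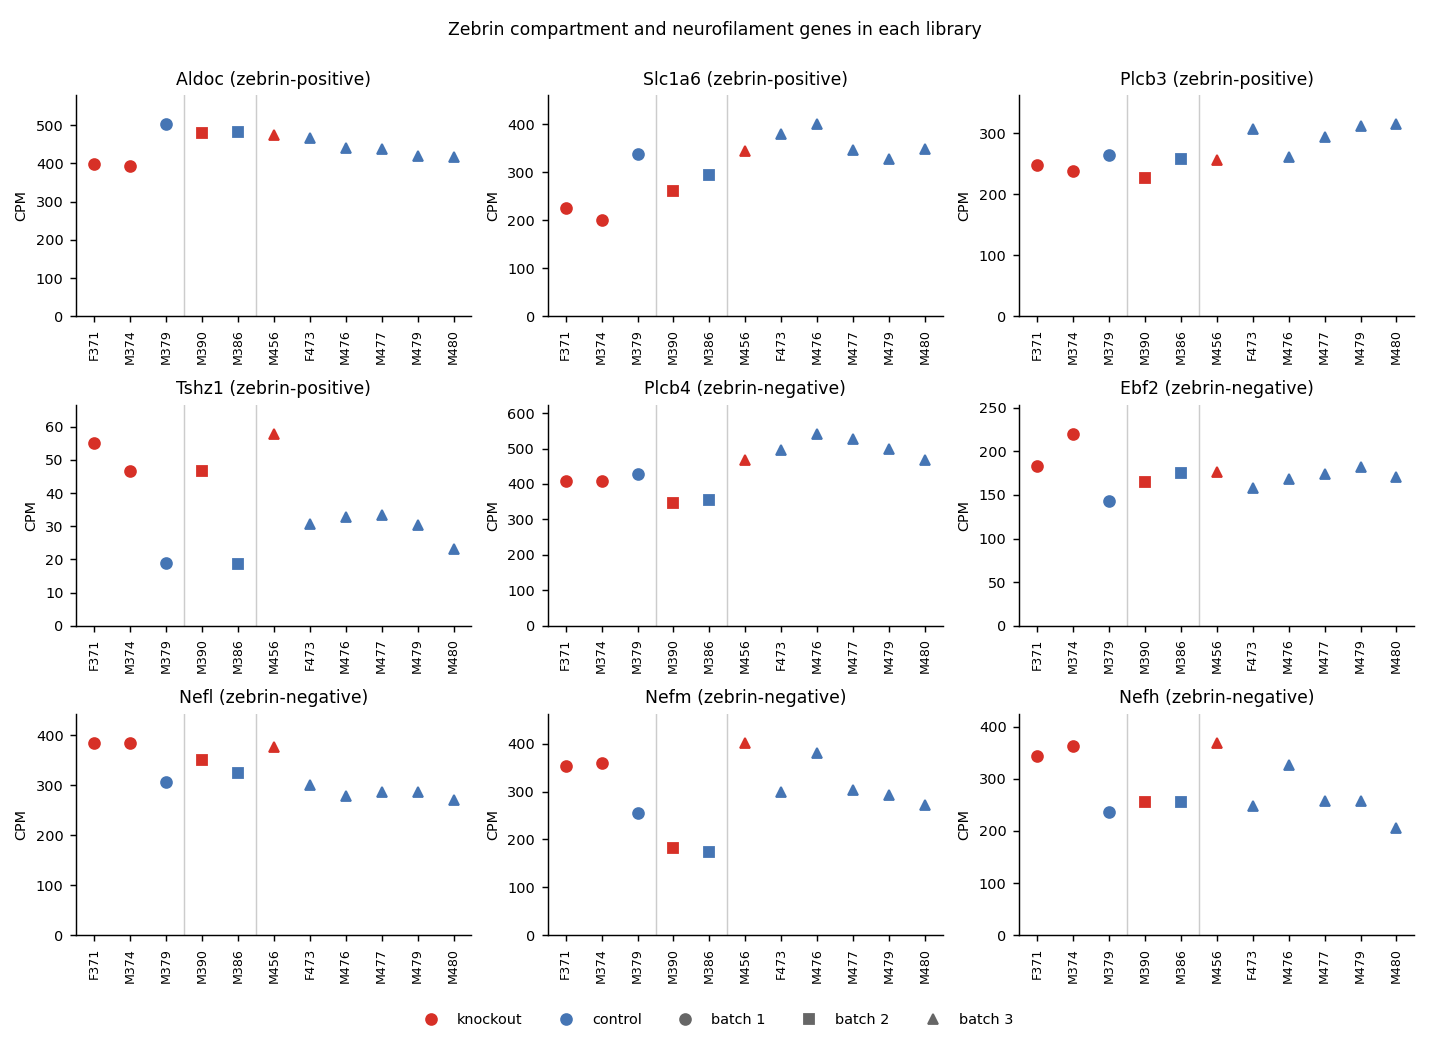
CPM of each of the 9 genes (vertical axes from 0) in each of the 11 libraries (horizontal axes), with 1 point per library, colour for group, symbol for batch and grey lines between batches. Tshz1 lies at 46.6 to 57.9 CPM in the knockouts and 18.7 to 33.3 CPM in the controls, and the neurofilament genes of the batch 2 knockout M390 lie near those of its control M386.

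Aldoc encodes aldolase C, the zebrin II antigen itself. It stood at 399, 394, 480.5 and 473.4 CPM in knockouts F371, M374, M390 and M456, and at 418 CPM (lowest), 440.1 CPM (median) and 502 CPM (highest) in the controls. The groups overlapped, and only the batch 1 knockouts lay below all controls. The log2 fold change was -0.07 ± 0.09 (SE; adjusted p = 0.625). Within batches the log2 ratio was -0.34, -0.003 and 0.12, so its sign differed between batches, and without control M379, the only control of batch 1, the fitted value was 0.09. Astrocytes also express Aldoc. The summed astrocyte and Bergmann glia markers ranged from 373.9 to 642 CPM in controls and from 475.5 to 1349 CPM in knockouts, and their part in the Aldoc level was not tested.

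Slc1a6, the Purkinje cell glutamate transporter EAAT4, did not pass the test. It was at 225, 200.1, 259.9 and 344 CPM in knockouts F371, M374, M390 and M456, and at 294, 346 and 399.9 CPM (lowest, median, highest) in the controls. The 3 knockouts of batches 1 and 2 were below every control, and M456 lay within the control range. The log2 fold change was -0.30 ± 0.11 (SE; adjusted p = 0.0636), with within-batch ratios of -0.67, -0.18 and -0.07. It was called lower when the batch term was left out (-0.44 ± 0.13; adjusted p = 0.0282). Its size depended on the libraries and covariates. It was -0.09 without control M379 and -0.08 adjusting for the purity score, but -0.46 without knockout M456 and -0.52 adjusting for the library total, none of them called. RefSeq places part of Ccdc105 over the start of Slc1a6.

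Plcb3, the phospholipase C isoform of zebrin-positive cells, had 248, 239, 227 and 257 CPM in the 4 knockouts in the same order. The controls ranged from 258 to 315 CPM with a median of 295 CPM. No knockout reached a control value, but M456 at 256.9 CPM and control M386 at 258.3 CPM were close. The log2 fold change of -0.17 ± 0.09 did not pass the test (SE; adjusted p = 0.167), and the ratio was -0.12, -0.19 and -0.21 in batches 1 to 3.

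The promoters of Aldoc and Slc1a6 are shown because of the likeness of these 2 genes over the libraries. Their log2 CPM, centred within batches, had a Pearson r of 0.83 over 11 libraries. It describes libraries that share genotype and depth differences, and it rests largely on batch 1, which has 1 control. For both genes the largest departures from the batch mean were in control M379 (0.227 for Aldoc and 0.448 for Slc1a6) and knockout M374 (-0.123 and -0.309). Both sequences are RefSeq promoter windows of GRCm38.p6, from 250 bases before to 50 bases after a start site, on the plus strand. The Aldoc window is chr11:78322823-78323122 and the Slc1a6 window is chr10:78780246-78780545. The set of windows holds 2 for Aldoc, of which the upstream one is shown, and 1 for Slc1a6. RefSeq begins the Slc1a6 gene at base 78780086, upstream of its window, so that window does not lie at the gene start. Capitals mark the GC box GGGCGG on either strand.
Aldoc: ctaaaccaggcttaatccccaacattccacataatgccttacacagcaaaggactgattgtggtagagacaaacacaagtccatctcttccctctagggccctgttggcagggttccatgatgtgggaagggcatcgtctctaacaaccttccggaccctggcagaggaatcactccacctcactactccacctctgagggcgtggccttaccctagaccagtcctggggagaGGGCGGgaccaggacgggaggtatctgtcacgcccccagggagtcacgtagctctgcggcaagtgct
Slc1a6: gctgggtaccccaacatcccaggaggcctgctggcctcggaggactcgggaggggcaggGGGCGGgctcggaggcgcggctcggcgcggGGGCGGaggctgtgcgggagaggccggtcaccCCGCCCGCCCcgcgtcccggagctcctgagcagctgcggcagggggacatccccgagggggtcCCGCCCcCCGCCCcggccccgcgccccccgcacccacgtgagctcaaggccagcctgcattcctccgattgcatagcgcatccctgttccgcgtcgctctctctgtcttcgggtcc

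The Aldoc window holds 1 GC box and the Slc1a6 window 6, counting overlapping matches separately, and their GC content is 56.3% and 75.7%. Of 32851 windows of this length in the RefSeq table, 35.7% hold a GC box. TATAAA and CCAAT, also searched on both strands, are in neither window, while 13.6% and 37.4% of all windows hold them. The window of Plcb3 holds 6 GC boxes and the upstream one of the 2 windows of Plcb4 holds 7, in genes that are assigned to opposite stripes. The other genes, Tshz1, Ebf2, Nefl, Nefm and Nefh, had no window in the table. A match is a description of these letters and not a binding site.

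Tshz1 encodes a zinc finger homeodomain transcription factor and was the zebrin-positive gene that rose. It had 55.1, 46.6, 46.8 and 57.9 CPM in knockouts F371, M374, M390 and M456, from 145 to 199 reads. The controls were at 18.7 CPM (lowest), 30.3 CPM (median) and 33.3 CPM (highest), from 79 to 154 reads. Every knockout was above every control. Mean knockout expression was 51.6 CPM ± 5.79 (SD, n = 4) and mean control expression 26.9 CPM ± 6.45 (SD, n = 7). The batch-adjusted log2 fold change of 1.20 ± 0.20 (SE; adjusted p from edgeR = 0.00241), a fitted fold of 2.3, passed the test. The ratio was 1.40, 1.30 and 0.93 in batches 1 to 3, so it did not rest on 1 batch. With the library total or the purity score as a further covariate the log2 fold change was 1.29 ± 0.30 and 1.31 ± 0.33, but neither passed (adjusted p = 0.238 and 0.363), in fits that called 0 of all genes.

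**Figure D2:**
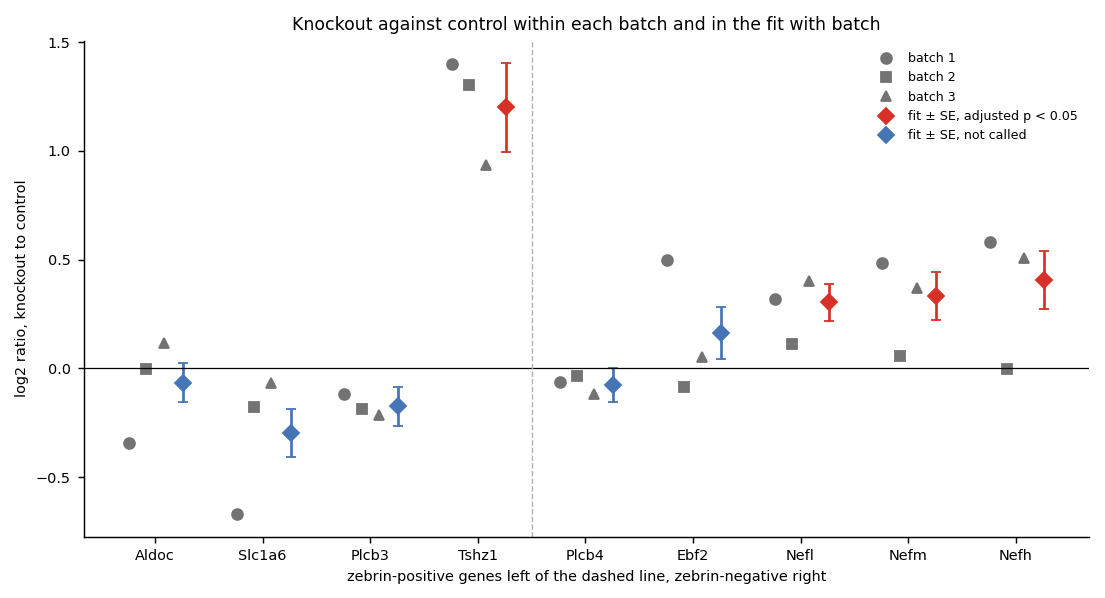
Log2 ratio of knockout to control mean CPM within each batch (grey symbols) and the fitted log2 fold change with its standard error (diamonds) for the 9 genes, zebrin-positive to the left and zebrin-negative to the right of the dashed line. Tshz1 is above 0.9 in all 3 batches, whereas Nefl, Nefm and Nefh are at 0.11, 0.06 and 0.00 in batch 2.

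Plcb4, the phospholipase C isoform of zebrin-negative cells, had 409, 407, 347 and 467 CPM in the 4 knockouts, and 355, 495 and 542 CPM (lowest, median, highest) in the controls. The groups overlapped, and the batch 2 pair was lowest at 347 and 355 CPM. The log2 fold change was -0.08 ± 0.08 (SE; adjusted p = 0.495). Ebf2, the transcription factor of the zebrin-negative fate, had 184, 220.2, 164 and 177 CPM in the knockouts. Its controls had 143, 170.2 and 182 CPM, also with overlap. Its log2 fold change of 0.16 ± 0.12 did not pass (SE; adjusted p = 0.329). The within-batch ratios were 0.50, -0.09 and 0.05, so its excess lay in batch 1.

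The 3 neurofilament genes rose by 23.4% to 32.6%. Nefl had 384, 385, 349.7 and 377 CPM in knockouts F371, M374, M390 and M456, and 271, 287 and 324 CPM (lowest, median, highest) in the controls. All 4 knockouts were above all 7 controls, with the smallest gap in batch 2. Knockouts averaged 373.7 CPM ± 16.4 (SD, n = 4) and controls 294 CPM ± 18.1 (SD, n = 7). The fitted log2 difference was 0.30 ± 0.08 (SE; adjusted p from edgeR = 0.0176). Of the 3, Nefl was also the least variable among controls, with a coefficient of variation of 6.17% beside 21.9% for Nefm and 14.2% for Nefh.

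Nefm had 354, 360.5, 182 and 402 CPM in the knockouts, and 175, 294 and 380.5 CPM in the controls. The groups overlapped: control M476, at 380.5 CPM, was above 3 of the 4 knockouts. The batch 2 libraries were far below the others, at 182 CPM in knockout M390 and 175 CPM in control M386, where every other library had at least 255 CPM. On the log2 scale Nefm rose by 0.33 ± 0.11 (SE; edgeR adjusted p = 0.0407). A fit with genotype alone did not call it (0.20; adjusted p = 0.502), nor did scaling by library totals only (0.33; adjusted p = 0.0549). Nefh had 344, 363, 255 and 369 CPM in the knockouts, and 205.5, 256 and 326 CPM in the controls. Control M476, at 326 CPM, was above the next control at 257 CPM and above knockout M390. The log2 fold change of Nefh was 0.41 ± 0.13 (SE; edgeR adjusted p = 0.0359).

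The rise of these genes was carried by batches 1 and 3. In batch 2 the log2 ratios of Nefl, Nefm and Nefh were 0.11, 0.06 and -0.003, against 0.32, 0.48 and 0.58 in batch 1 and 0.40, 0.37 and 0.51 in batch 3. Without batch 2 the fitted values were 0.39, 0.45 and 0.57. All 3 calls were lost without M456, the only batch 3 knockout (log2 fold changes of 0.23, 0.30 and 0.33, edgeR adjusted p = 0.186, 0.242 and 0.292). They were also lost without M379, the only batch 1 control (0.31, 0.28 and 0.34, edgeR adjusted p = 0.0728, 0.221 and 0.201). With batch in the model, either omission takes out the knockout-control comparison of that whole batch, and not of 1 animal alone. Calls over all genes fell too, from 3257 to 335 without M456 and to 522 without M379. M456 had the fewest reads of all 11 libraries. With the library total as a covariate, the log2 fold changes were 0.18 ± 0.11, 0.09 ± 0.15 and 0.06 ± 0.18 (SE; adjusted p = 0.486, 0.812 and 0.915) for Nefl, Nefm and Nefh. With the purity score they were 0.21 ± 0.14, 0.30 ± 0.19 and 0.32 ± 0.22 (adjusted p = 0.607, 0.586 and 0.61). Depth and purity moved with genotype in these libraries, and their part in the rise was not tested further.

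Neurofilaments are also abundant in projection neurons outside the Purkinje layer, such as those of the cerebellar nuclei. A list of 6 markers was fixed for cerebellar nuclei and other excitatory non-granule neurons together, and 2 of them passed the filter. Spp1 rose, from 3.24 to 6.53 CPM in the controls to 6.78 to 45.5 CPM in the knockouts, and the vesicular glutamate transporter gene Slc17a6 had 0.925 to 4.54 CPM in controls and 1.18 to 7.79 CPM in knockouts. Tbr1 had 0 reads in 5 libraries, Lmx1a in 6, Eomes in 1 and Meis2 in all 4 knockouts. The 6 markers together reached 7.43 to 17.7 CPM in controls and 11.5 to 58.7 CPM in knockouts. The 3 neurofilament genes together held 749 to 986 CPM in controls and 787 to 1147 CPM in knockouts. Marker levels do not measure the neurofilament RNA that these cells bring, so the sums are not compared with each other. Of 8 molecular layer and Golgi interneuron markers 7 were tested, 3 rose and 0 fell, beside 10.9% and 13.4% of all tested genes. The summed level of this list was 64.7 to 104.6 CPM in controls and 100.4 to 227.7 CPM in knockouts. The part of any of these cell types in the neurofilament rise was not tested. Nefh overlaps the start of Ap1b1 in RefSeq, and the strand setting of the counting is not given, so reads in the shared stretch are uncertain. Nefh also overlaps the long noncoding RNA gene Gm35321, and Nefm, Plcb3, Plcb4 and Ebf2 overlap other such genes. Ap1b1 had a log2 fold change of -0.33 ± 0.13 (SE; edgeR adjusted p = 0.0649).

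The neurofilament genes were not all equally alike. Nefm and Nefh followed each other over the 11 libraries (Pearson r of batch-centred log2 CPM of 0.98), and Nefl was less close to them (0.78 with Nefm and 0.80 with Nefh). Control M476 weighed on this: its departures from the batch mean were 0.240 for Nefm and 0.261 for Nefh, but -0.095 for Nefl. The correlations were not computed without it. Pairs across the 9 genes did not sort by class. Zebrin-positive Plcb3 ran opposite to the neurofilament genes, at -0.65 with Nefl, -0.87 with Nefm and -0.83 with Nefh, whereas zebrin-positive Tshz1 ran with them, at 0.86, 0.79 and 0.76. Within the zebrin-positive genes, Tshz1 and Plcb3 were at -0.75 and Aldoc and Plcb3 at -0.01. Ebf2 ran opposite to Aldoc (-0.81) and Slc1a6 (-0.90). Its largest departures from the batch mean were in batch 1, at -0.328 in control M379 and 0.295 in knockout M374. These correlations share the genotype and depth differences of the libraries. The chains also made up different shares of the summed neurofilament CPM between batches: Nefm held 23.1% and 23.2% in the 2 libraries of batch 2 and 31.9% to 38.6% in the other 9. Nefl lies 30.4 kb from Nefm on chromosome 14 (68083863 to 68089095 and 68119545 to 68125004 in GRCm38.p6), and Nefh is on chromosome 11 (4938754 to 4948064).

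The 2 classes were then set against each other in each library. The zebrin index, the mean log2 CPM of the 4 zebrin-positive genes minus that of the 5 zebrin-negative genes, was -0.78 and -0.98 in knockouts F371 and M374, below the -0.58 of control M379. In batch 2 it was -0.37 in knockout M390 and -0.60 in control M386. In batch 3 it was -0.62 in knockout M456 and -0.68 to -0.47 in the 5 controls. It was thus lower in knockouts in batch 1, higher in batch 2 and within the control range in batch 3. The within-batch difference, weighted over batches, was -0.06, smaller than the residual SD of 0.09 between libraries of one group and batch. Since the index depends on gene lengths, only differences of it are read, and no p is given for a score over chosen genes.

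Both classes had higher means in the knockouts, by 0.16 for the zebrin-positive and 0.23 for the zebrin-negative genes on the log2 scale. In the zebrin-positive class this rested on Tshz1: the other 3 genes had negative fold changes, and the class median was -0.12. Without Tshz1 the index fell by 0.74, 0.13 and 0.30 in batches 1 to 3, and by 0.41 when weighted. Without the neurofilament genes the difference was 0.12, with -0.15, 0.29 and 0.23 in the 3 batches. Without both Tshz1 and the neurofilament genes, the remaining Aldoc, Slc1a6 and Plcb3 against Plcb4 and Ebf2 gave -0.59, -0.06 and -0.02. That difference lay almost wholly in batch 1, which has 1 control.

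**Figure D3:**
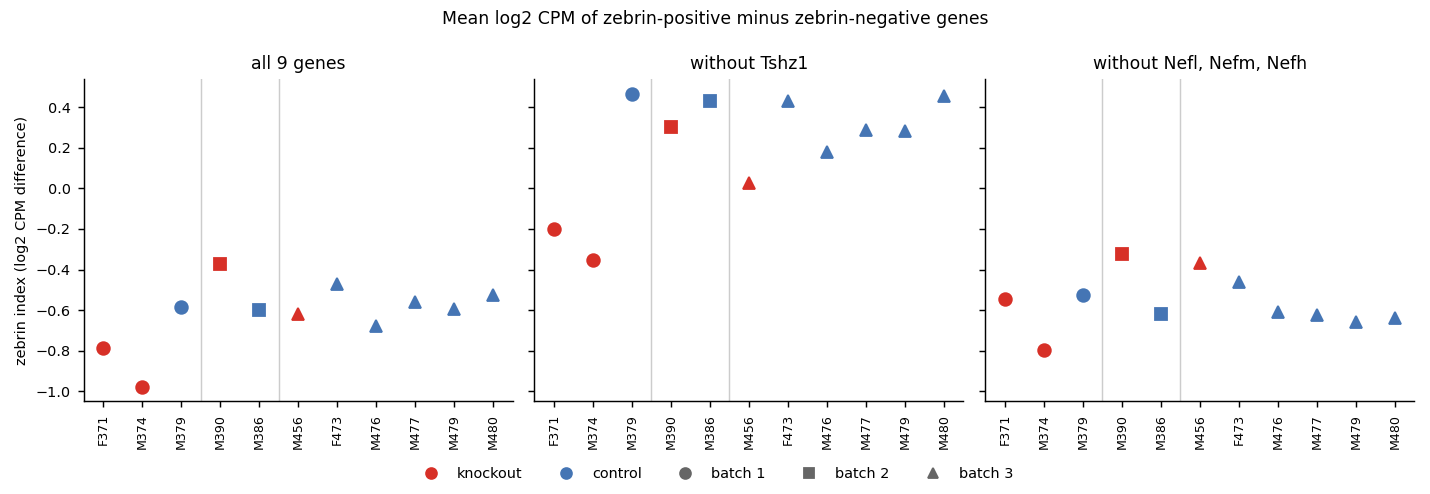
Zebrin index (log2 CPM difference, vertical axis) in each library for all 9 genes, without Tshz1, and without the 3 neurofilament genes, with colour for group and symbol for batch. With all 9 genes the knockouts lie on both sides of the controls, at -0.98 to -0.37, and without Tshz1 each knockout lies below the controls of its own batch.

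Other genes reported from zebrin stripes mostly did not pass the test. Of 6 further zebrin-positive genes 0 rose and 1 fell, beside 10.9% and 13.4% of all tested genes, so the count of falls was near the background. Their median log2 fold change was -0.31, beside -0.02 over all genes tested. The gene that fell was Gabbr2, a GABA-B receptor subunit, at 306, 279, 285 and 378 CPM in the knockouts and 318 to 560.5 CPM in the controls (-0.36 ± 0.09 SE; edgeR adjusted p = 0.0108). The calcium sensor gene Ncs1 (-0.44 ± 0.16), the sphingosine kinase gene Sphk1 (-0.24 ± 0.14), the protein kinase gene Prkcd (-0.27 ± 0.19) and Itpr1, the IP3 receptor gene (-0.03 ± 0.07), were not called. The small heat shock protein gene Hspb1 had no overlap between groups, with 4.39 to 8.7 CPM in knockouts and 10.3 to 20.1 CPM in controls, but rested on 92 and 402 reads and was not called (-0.88 ± 0.39). The 1 further zebrin-negative gene, neuroplastin (Nptn), was at 0.17 ± 0.10 and was not called (log2, SE; edgeR adjusted p = 0.241).

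Of 11 paralogs of the 9 genes, 9 were tested, 3 rose and 0 fell, beside 10.9% and 13.4% of all tested genes. Slc1a2 and Slc1a3, which encode the glutamate transporters of astrocytes and Bergmann glia, rose by 1.13 ± 0.26 and 0.84 ± 0.18. These genes are also counted in the astrocyte and Bergmann glia list above. Their Purkinje cell relative Slc1a6 had the negative value above. Ebf3 rose by 0.71 ± 0.19 (log2, SE; edgeR adjusted p = 0.0138), from 59.8 to 90.4 CPM in the controls to 80.4 to 151.8 CPM in the knockouts. In batch 2 its knockout was lower, at 80.4 against 87 CPM. Ebf1 was at -0.17 ± 0.08, the aldolase gene Aldoa at -0.26 ± 0.12, Plcb1 at 0.10 ± 0.12, Slc1a1 at -0.55 ± 0.77, Tshz2 at 0.58 ± 0.44 and Tshz3 at 0.24 ± 0.35, none of them called. Ebf4 and Plcb2 had too few reads to be tested, 33 and 4 over all controls and 0 and 3 over all knockouts.

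Alpha-internexin (Ina), a further subunit of neuronal intermediate filaments, did not rise with the neurofilament genes. It had 257, 226, 267 and 283 CPM in the knockouts and 289 to 378 CPM in the controls, with no overlap, and its log2 fold change of -0.26 ± 0.10 was not called (SE; edgeR adjusted p = 0.07). Peripherin (Prph), with 39 control and 17 knockout reads, was not tested. Of 13 genes of neurofilament transport, phosphorylation and turnover 2 rose and 2 fell, shares near the 10.9% and 13.4% of all tested genes, with a median of -0.02. The kinesin heavy chain genes went apart: Kif5a fell by 0.54 ± 0.11, from 241 to 375 CPM in the controls to 156 to 226 CPM in the knockouts without overlap, Kif5b rose by 0.37 ± 0.11, and Kif5c was at 0.02 ± 0.11. The kinesin light chain gene Klc2 fell by 0.79 ± 0.27. Cdk5r1, the activator of the neurofilament kinase Cdk5, rose by 0.68 ± 0.17, and Cdk5 itself was at -0.02 ± 0.09 (log2, SE). The ubiquitin ligase gene Trim2 was at -0.12 ± 0.13 and was not called.

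**Figure D4:**
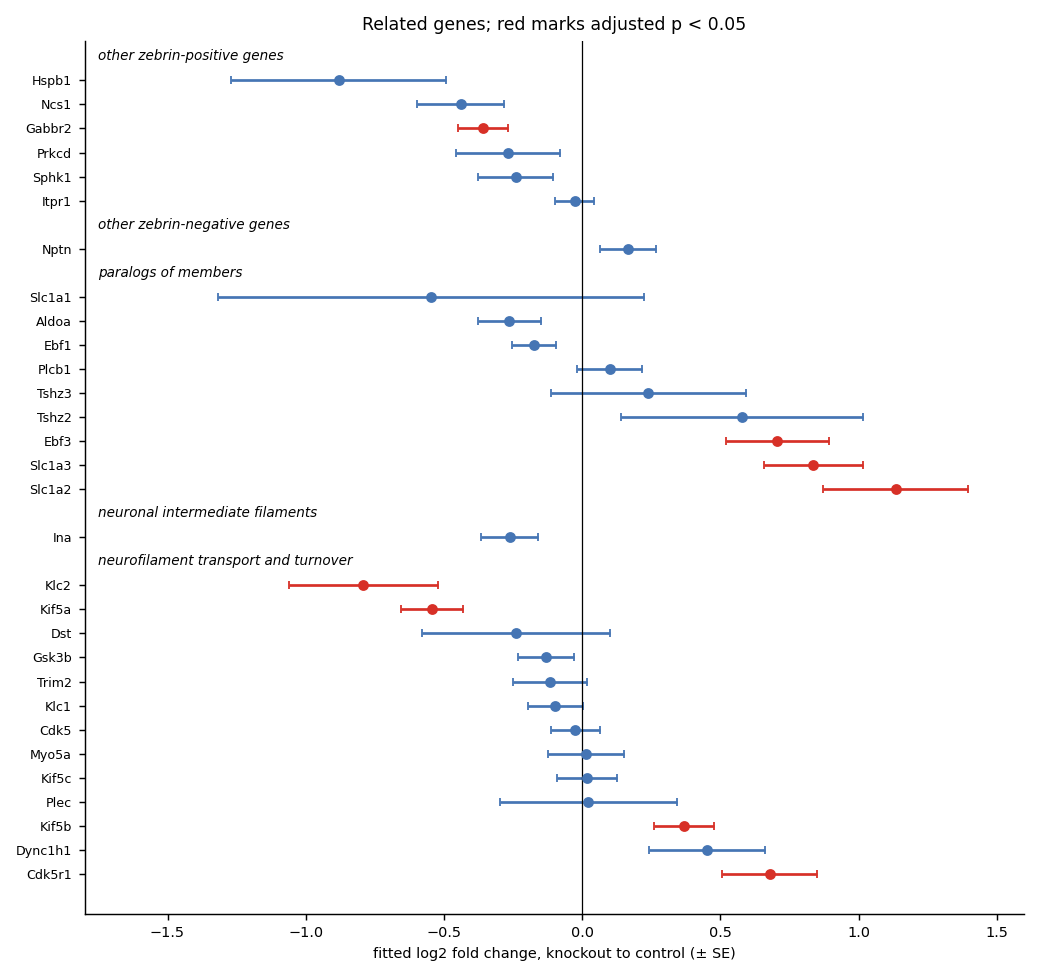
Fitted log2 fold change with its standard error (horizontal axis) for the tested genes of 5 related lists, with red for an adjusted p under 0.05 in edgeR. The 6 other zebrin-positive genes all lie at or below -0.03, the other zebrin-negative gene lies at 0.17, and Kif5a and Kif5b lie on opposite sides of 0.

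Genes with the most similar pattern were taken as those of at least 10 mean CPM with the highest Pearson r of batch-centred log2 CPM over the 11 libraries, picked as the highest of 9897 candidates (9895 for the neurofilament mean). For Aldoc these were Dazap2 (0.98), the endoplasmic reticulum chaperone gene Hspa5 (0.95), Pea15a (0.95) and the ATP synthase subunit gene Atp5a1 (0.95), none of them called. For Tshz1 they were Mfap1b (0.96), the cell surface receptor gene Cdon (0.96), the bromodomain gene Brd2 (0.96) and Gatd3a (0.96), all 4 called higher. For the mean of the neurofilament genes they were Nsmce4a (0.997), the metallothionein gene Mt1 (0.997), the cyclin K gene Ccnk (0.99) and Ccdc34 (0.99), all 4 called higher. Centring within batches keeps the difference between the groups, so genes picked for likeness to a rising profile tend to be called higher too.

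**Figure D5:**
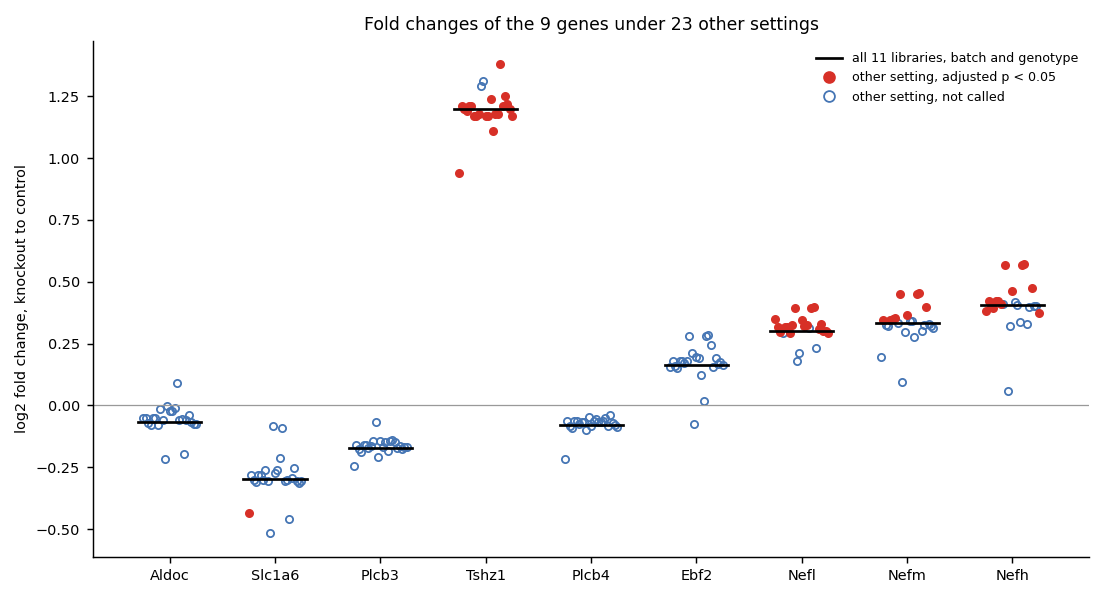
Log2 fold change of each of the 9 genes (vertical axis) under 23 other settings (circles, filled where the adjusted p was under 0.05) and with all 11 libraries, batch and genotype (black lines). Tshz1 stays between 0.94 and 1.38 and is called in 21 of the 23 settings, Nefl in 18, Nefh in 13 and Nefm in 9.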

How the data were processed

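The authors deposited 1 file of whole-number read counts per gene for each of 11 libraries. Per the submitters' processing notes the reads were aligned with STAR to GRCm38 and counted with HTSeq. The sources used here give no version, annotation release or strand setting. The 5 summary lines that name no gene held 18.3% to 26.1% of counted alignments per library and were left out. Each library has its own animal tag, and nothing else in the labels says that the libraries are separate replicates. The chi-square of the most similar pair was 2.46 times its degrees of freedom, so none was counted as a copy.

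Counts were filtered with filterByExpr, scaled with TMM and fitted in edgeR 4.0.16 (R 4.3.3) with batch and genotype, 7 residual degrees of freedom, two-sided p-values and Benjamini-Hochberg adjustment over 13375 genes at 0.05. CPM used TMM-scaled totals, log2 CPM a prior count of 2. Ratios within batches were taken of mean CPM plus 0.5. An SE is the fold change over the root of F. No batch was tested alone: batches 1 and 2 hold 1 control each and batch 3 holds 1 knockout. A script was tested on simulated counts. The alternatives included DESeq2 1.42.0 and limma 3.58.1. The 9 genes, the lists and the alternatives were chosen with earlier results of these data known. Named genes were the 9 genes, called list genes (at most 6 per list), their paralogs, and the 4 genes most alike to Aldoc, Tshz1 and the neurofilament mean. Other list genes were named after their values were seen. Gene positions and promoters came from RefSeq, which matched all 9 genes by symbol for positions and 4 for promoters. Where a symbol had 2 identifiers (Aldoa), the one with more reads was used. Some genes of the lists are not reported here and were left out of the list counts.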

Additional observations from a re-analysis of the deposited data

Results flagged for a closer look

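In the controls, Nefh of M476 stood apart from the other 6 libraries at 326 CPM, with the next control at 257 CPM. The gap was 0.572 of the range of the 7 controls. By Dixon's criterion, whose cut-off is higher for the 4 knockouts than for the 7 controls, it was the only gap past the cut-off among 20 groups of values examined (the 9 genes and the zebrin index in each genotype), of which chance alone would give about 1 in 20.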

How the results depend on the processing

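Tshz1, Nefl, Nefm and Nefh stayed above 0 and Slc1a6, Plcb3 and Plcb4 below 0 in all 23 other settings. Leaving out batch 2, M390 or M386 drops the same comparison each time, as batch 2 holds only these libraries. Aldoc ranged from -0.197 to 0.0915 with each library left out, turning positive without control M379, and Ebf2 turned to -0.0755 with the purity score as a covariate. The count of 4 called genes was 2 without a filter on low counts and 2 in animals tagged M only, and 1 to 4 with each library left out, with 1 remaining call without control M379 and without knockout M456. It was 2 without F371, M374, F473, M477 or M479. Over all genes the count was 335 (without M456) to 4649 (without M390), and 522 without M379. With the library total or the purity score as a covariate 0 of the 9 genes and 0 of all genes were called by edgeR, while 1841 and 1372 genes had an unadjusted p under 0.05; the score is built from cell type markers that differ between the groups, and other tools were not run with these covariates. The zebrin index difference was -0.161 without batch 2, 0.12 without the neurofilament genes, -0.405 without Tshz1, and -0.161 to 0.0522 with each library left out, positive only without M379. The cause of these changes was not tested. Without the batch term the count was again 4, but with Slc1a6 lower in place of Nefm higher. All other settings left these counts within 1.5 times and the index within its residual SD. At these depths each of the 9 genes had at least 79 reads in every library.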

Other observations

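Among the controls some of these genes differed by batch. Tshz1 was at 18.9 and 18.7 CPM in the single controls of batches 1 and 2 and at 23.1 to 33.3 CPM in the 5 controls of batch 3. Plcb4 was at 427 and 355 CPM against 467 to 542 CPM, and Gabbr2 at 389.7 and 318 CPM against 478 to 560.5 CPM. Nefl went the other way, at 307 and 324 CPM against 271 to 301 CPM. With 1 control in each of batches 1 and 2 these differences were not tested.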
